A study of Homo sapiens with 6 samples.

Results

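Tight junctions are the most apical of the cell-to-cell contacts of an epithelium, and the genes described here encode their membrane strands, the scaffolds beneath them and the polarity proteins that place them. The genes were matched by symbol, and the rule used no measured value. They are 19 claudins, 3 MARVEL-domain proteins, 3 junctional adhesion molecules, 6 scaffolds of the cytoplasmic plaque and 5 proteins of the PAR and Crumbs polarity complexes. Of these 36 genes, 34 were found among the 34811 genes of the count table, and 29 were abundant enough to be tested. The expression of CLDN2 and CLDN14 was not analysed here, and CLDN5, CLDN18, CLDN19, CLDN20 and CLDN23 had too few reads for the test.

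Claudins are proteins with several membrane passes that polymerise into strands and seal the space between neighbouring cells, and the set of claudins in a strand decides which ions and small solutes can pass. Some claudins mainly form a barrier, while others form channels selective for cations or anions. Occludin and tricellulin share the strands, the ZO proteins and cingulin tie them to actin, and the PAR and Crumbs complexes separate the apical from the basolateral membrane. CLDN3 and CLDN4 are known for their high expression in many ovarian carcinomas, although the normal ovarian surface epithelium carries little of either.

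The libraries came from OVCAR-3, an established human ovarian cancer cell line with epithelial features. OV3/SCR cells carried a scrambled pRS shRNA in the HuSH-29 plasmid and OV3/COX1KD cells an shRNA against COX-1, the cyclooxygenase that starts prostaglandin synthesis. Both were stable lines made under puromycin and grown in RPMI-1640 with FBS, each condition was 1 clone, and 3 independently harvested populations of each were sequenced. The comparison asked which genes differed with COX-1 knocked down, but with 1 clone on each side, knockdown and clone cannot be told apart, and the p-values measure the spread between harvests of 1 clone.

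Between 25291505 and 27391538 reads were counted on genes per library. The target gene PTGS1 had 713, 658 and 641 counts in OV3/SCR and 456, 486 and 501 in OV3/COX1KD, a log2 fold change of -0.45 ± 0.057 (SE, n = 3 per condition). Its edgeR FDR, the p-value of the quasi-likelihood test adjusted by Benjamini-Hochberg over the 17309 genes tested, was 1.34e-06. OV3/COX1KD replicate 2 stood somewhat apart from the other libraries of its condition, with 4.81 and 6.28 as chi-square per degree of freedom against them, compared with 1.82 to 3.18 among the other pairs of 1 condition. All 12 markers of ovarian serous epithelium that were looked up had more than 10 counts in every library. Their summed level was 5859 to 5935 CPM (counts scaled by edgeR to a common library size) in OV3/SCR and 7632 to 7830 CPM in OV3/COX1KD, and the part of these markers in the junction results was not tested. At the FDR limit of 0.01 used below, 10 of the 12 rose, where 25.8% of all tested genes did. Among them was the keratin KRT8, from 1500 to 2357 CPM on average. PAX8, a transcription factor of the Mullerian lineage, fell from 755 to 446 CPM and KRT7 from 1039 to 941 CPM. The summed level of 6 leukocyte markers was at most 2.15 CPM and that of 4 endothelial markers at most 4.72 CPM, with the endothelial cadherin CDH5 at 0 to 3 counts. Of 6 fibroblast markers, LUM and COL3A1 were at or near 0, and the sum of 10.6 to 11.3 CPM in OV3/SCR and 6.37 to 7.33 CPM in OV3/COX1KD came mostly from COL1A1. In bulk RNA, fewer cells of a type and less RNA per cell cannot be told apart.

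Stretches of DNA before the starts of 5 of the genes are shown. CLDN1, CLDN3 and CLDN4 were chosen for their large changes and abundance, and CLDN7 and OCLN because they rose and their windows hold the letters described with them. They are the 250 bases before a RefSeq start site, read 5′ to 3′ on the strand of the gene, in GRCh38.p14. In the first 3, capitals mark the GC box letters GGGCGG or, on the other strand, CCGCCC, which GC-rich promoters often hold. CLDN1, which fell, is on the minus strand at chr3:190322447-190322696. CLDN3, which rose, is on the minus strand at chr7:73770271-73770520, and CLDN4, its neighbour that also rose, is on the plus strand at chr7:73830746-73830995.
CLDN1: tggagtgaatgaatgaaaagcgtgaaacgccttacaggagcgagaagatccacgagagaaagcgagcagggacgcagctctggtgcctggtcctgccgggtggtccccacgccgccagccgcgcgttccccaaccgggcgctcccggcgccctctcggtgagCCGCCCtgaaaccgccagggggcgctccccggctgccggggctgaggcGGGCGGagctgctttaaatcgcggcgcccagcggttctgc
CLDN3: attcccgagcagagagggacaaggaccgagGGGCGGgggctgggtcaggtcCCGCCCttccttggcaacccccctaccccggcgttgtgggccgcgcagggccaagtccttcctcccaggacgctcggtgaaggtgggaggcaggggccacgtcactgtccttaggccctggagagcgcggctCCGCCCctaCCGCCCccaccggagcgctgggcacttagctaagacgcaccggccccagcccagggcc
CLDN4: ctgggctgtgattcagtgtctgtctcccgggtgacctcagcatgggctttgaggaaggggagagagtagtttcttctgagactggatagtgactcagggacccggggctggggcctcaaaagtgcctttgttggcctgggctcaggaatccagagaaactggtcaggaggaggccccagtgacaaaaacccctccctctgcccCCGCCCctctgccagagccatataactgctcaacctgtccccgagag
In the remaining pair, capitals mark the E-box letters CACCTG or, on the other strand, CAGGTG, the form bound by Snail and ZEB repressors of epithelial genes. Of these, ZEB1 had 0 or 1 counts per library and ZEB2 had 0 to 11. SNAI1 had a log2 fold change of -0.27 ± 0.12 (edgeR FDR 0.0501) and did not pass the FDR limit of 0.01. The part of these factors was not tested. CLDN7, which rose, is on the minus strand at chr17:7262479-7262728 before the second of its RefSeq starts. OCLN, which also rose, is on the plus strand at chr5:69492297-69492546 before the first of its starts.
CLDN7: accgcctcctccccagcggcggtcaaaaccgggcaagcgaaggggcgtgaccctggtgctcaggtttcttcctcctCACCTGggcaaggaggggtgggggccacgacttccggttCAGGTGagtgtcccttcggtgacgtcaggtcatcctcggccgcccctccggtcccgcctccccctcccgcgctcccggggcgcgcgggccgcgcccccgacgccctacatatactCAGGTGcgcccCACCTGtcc
OCLN: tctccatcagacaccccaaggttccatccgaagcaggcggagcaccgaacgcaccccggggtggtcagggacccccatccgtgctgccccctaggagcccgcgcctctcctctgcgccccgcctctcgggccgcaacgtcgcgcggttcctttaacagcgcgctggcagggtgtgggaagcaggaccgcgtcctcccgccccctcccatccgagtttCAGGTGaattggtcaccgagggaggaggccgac

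Of the 36 genes, 25 had a RefSeq window, CLDN2 and CLDN14 among them, and together they had 38. The E-box letters were found before 8 of these genes, whereas 17.5% of 35114 windows of the same length held them. Among the 6 genes that rose beyond the log2 threshold of 0.5 used below, with 10 windows, CLDN7, OCLN and TJP3 held the letters. CLDN3, CLDN4 and CLDN16 rose beyond it without them. None of the 5 windows of the 4 genes that fell beyond the threshold and had a window held them. CRB3 had 5 matches, the most of any member, and TJP1 had 1. Neither gene passed the test, with log2 fold changes of -0.041 for CRB3 and 0.013 for TJP1. Whether the letters go with a rise was not tested. CLDN7 had 4 matches at its second start, 174, 135, 20 and 9 bases before it, and none at its first. GC box letters lay before 19 of the 25 genes, among them all 6 that rose and all 4 that fell, against 42.6% of all windows. CLDN3 had 4 of them and CLDN1 had 2. No TATAAA was found before any of the 25 genes, against 10.7% of all windows. The members were counted per gene and the percentages per window, so these are not like for like. A gene with several starts had more chances of a match, the motifs were counted on both strands, and a match is a description of letters and not of a bound site.

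The largest changes of the junction genes were among the claudins, and they went in both directions. CLDN3, CLDN4, CLDN16 and CLDN7 rose in OV3/COX1KD, and CLDN1, CLDN6, CLDN8, CLDN10 and CLDN15 fell, each with an edgeR FDR under 0.01 and a log2 fold change beyond 0.5. Outside the claudins only OCLN and TJP3 passed both limits, and both rose. Thus 6 genes rose and 5 fell, 37.9% of the 29 tested, where 19.9% of all tested genes passed these limits (9.87% higher and 10% lower). At the FDR alone, 15 rose and 6 fell, 72.4% of the 29, against 47.9% of all tested genes (25.8% higher and 22.1% lower). The shares of all tested genes were not matched to the members for abundance. Abundant genes can pass at small changes, as INADL did at 0.18, while the scarce CLDN9 did not pass at -0.38. Past a 2.5-fold change, 1 of the 29 rose and 2 fell, against 3.92% of all tested genes (1.58% higher and 2.34% lower). CLDN8, among the falls at each of these limits, passed the abundance filter through OV3/SCR. With at least 10 counts required in every library, 5 members fell at the FDR alone, 4 beyond 0.5 and 1 past 2.5-fold. The libraries of the conditions did not overlap in 21 of the 29, against 63.2% of all tested genes. The median log2 fold change of the 29 was 0.18 and the median of its size 0.42, and over all tested genes these were -0.0087 and 0.28. Whether claudins as a group differed from the other junction genes was not tested. Without OV3/COX1KD replicate 2 the counts at the FDR alone were also 15 and 6.

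**Figure D1:**
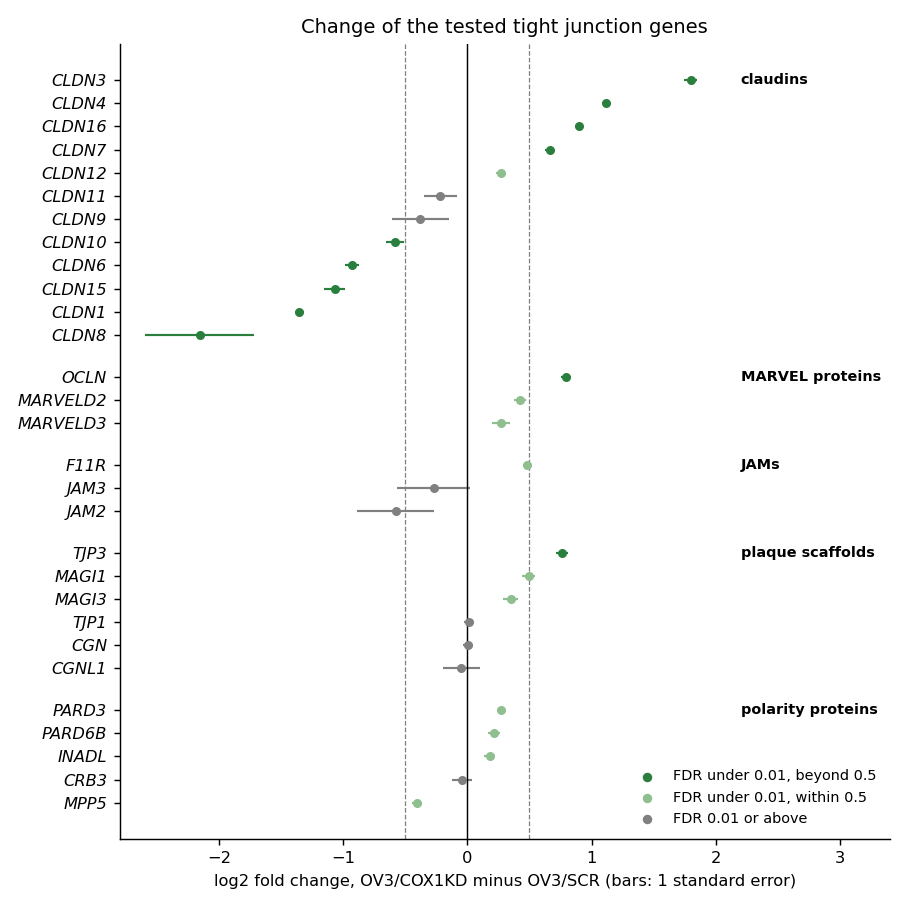
Log2 fold change (OV3/COX1KD minus OV3/SCR) of the 29 tested tight junction genes by family, with bars of 1 SE from edgeR, dashed lines at a size of 0.5, and dark green, light green and grey for genes called beyond 0.5, called within it and not called. CLDN3 lies highest at 1.80 and CLDN8 lowest at -2.16, and the genes of the plaque and polarity groups lie closer to 0 than most claudins.

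Of the 12 claudins tested, 5 rose and 5 fell at the FDR limit, 83.3% against 47.9% of all tested genes. Beyond 0.5, 4 rose and 5 fell, 75% against 19.9% of all tested genes. The falls include CLDN8, which passed the abundance filter through OV3/SCR. Their median log2 fold change was -0.30 and the median of its size 0.91.

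CLDN3, one of the claudins that serve as receptors for the enterotoxin of Clostridium perfringens, is a single gene model on chromosome 7 (GRCh37, 73183327 to 73184600). Its counts were 344, 343 and 337 in OV3/SCR and 1166, 1102 and 1217 in OV3/COX1KD. The 3 knockdown libraries all lay above the 3 controls, at 45.3 ± 1.21 CPM against 13.0 ± 0.129 CPM (SD, n = 3). The fold change of 3.48, on the log2 scale 1.80 ± 0.053 (SE), had an edgeR FDR of 5.84e-16. It was the only tested gene of the list that rose by more than 2.5-fold, as 1.58% of all tested genes did. CLDN4, the second receptor for that toxin, had 3126, 3213 and 3021 counts in OV3/SCR and 6635, 6304 and 6955 in OV3/COX1KD. Its groups were also well apart, with a log2 fold change of 1.12 ± 0.033 and an edgeR FDR of 6.09e-16. CLDN3 and CLDN4 lie side by side on chromosome 7, and 1.80% of the 50-base stretches in the exons of CLDN3 also occur in another gene, with CLDN4 sharing most.

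CLDN16, known from the kidney, where it is needed for the reabsorption of magnesium and calcium between cells, was abundant in these cells. It had 2903, 2757 and 2843 counts in OV3/SCR and 4982, 5055 and 5445 in OV3/COX1KD. The groups did not overlap, and the log2 fold change was 0.90 ± 0.032 with an edgeR FDR of 8.82e-15. CLDN7, a claudin of the lateral membrane that binds EPCAM, had 2827, 2664 and 2650 counts in OV3/SCR and 4189, 3942 and 4484 in OV3/COX1KD. This was the smallest of the 4 rises beyond the limit, at 0.66 ± 0.035 on the log2 scale with an edgeR FDR of 3.16e-12. CLDN12, a claudin without the usual tail that binds ZO proteins, rose within the limit, by a log2 fold change of 0.27 ± 0.038 with an edgeR FDR of 5.00e-06.

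CLDN1, a barrier claudin on which the skin depends to hold water, fell most among the abundant claudins. It had 4110, 4011 and 4013 counts in OV3/SCR and 1539, 1464 and 1647 in OV3/COX1KD. The libraries within a condition were close to each other, at 154 ± 0.695 CPM and 60.4 ± 1.80 CPM (SD, n = 3), and no library of one condition approached the other. The log2 fold change was -1.35 ± 0.035 with an edgeR FDR of 7.14e-17. This is a fall by 2.55-fold, just past the 2.5-fold limit that 2.34% of all tested genes passed downwards, and the value without OV3/COX1KD replicate 2 was -1.32, just inside it.

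CLDN6, a claudin of embryonic epithelia that reappears in some germ cell and ovarian tumors, had 722, 731 and 707 counts in OV3/SCR and 360, 368 and 384 in OV3/COX1KD. All 3 knockdown libraries had about the same low level, and the log2 fold change was -0.93 ± 0.056 with an edgeR FDR of 3.12e-11. Of the 50-base stretches in its exons, 8.01% were shared with other genes, led by RP11-29H23.6, which itself had at most 3 counts. CLDN15, a cation channel former of the gut, had 335, 320 and 348 counts in OV3/SCR and 156, 159 and 153 in OV3/COX1KD. Its log2 fold change was -1.07 ± 0.085 with an edgeR FDR of 1.76e-09, and the conditions were apart.

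CLDN10, whose isoforms form channels for either cations or anions, had 481, 444 and 525 counts in OV3/SCR and 321, 293 and 334 in OV3/COX1KD. Its groups did not overlap, but the OV3/SCR libraries spread more than for the other abundant claudins, and the log2 fold change was -0.58 ± 0.074 with an edgeR FDR of 1.40e-06. DZIP1 on the other strand covers 46.0% of the exon bases of CLDN10 and itself had a log2 fold change of -0.49. The sources used here do not state whether strand was used in counting, so the value for CLDN10 is uncertain. Whether reads from DZIP1 entered the CLDN10 counts was not tested. CLDN8, a claudin of the distal kidney tubule, was scarce, with 15, 20 and 21 counts in OV3/SCR and 6, 5 and 1 in OV3/COX1KD. Each OV3/COX1KD library was lower than each OV3/SCR library, and the log2 fold change of -2.16 ± 0.44 had an edgeR FDR of 2.88e-04. CLDN8 passed the abundance filter through OV3/SCR and was close to the floor of 3 counts in the knockdown, so the size of its fold change rests on few reads.

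**Figure D2:**
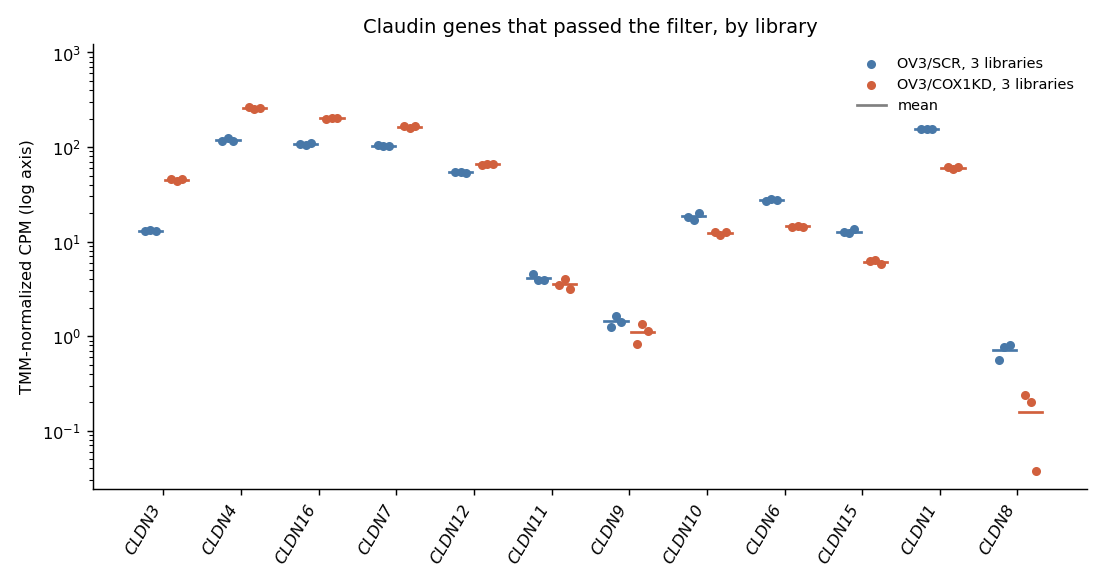
Level of the 12 tested claudins in every library, in CPM on a log axis, with points for the 3 libraries of OV3/SCR (blue) and of OV3/COX1KD (red) and a short line at each mean. CLDN3 is 13.0 CPM on average in OV3/SCR and 45.3 CPM in OV3/COX1KD, CLDN1 goes from 154 to 60.4 CPM, and CLDN8 is the scarcest, below 1 CPM in every library.

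CLDN9, which lies next to CLDN6, had 33, 43 and 37 counts in OV3/SCR and 21, 34 and 30 in OV3/COX1KD. CLDN11, the claudin of myelin and of Sertoli cell junctions, had 121, 103 and 101 counts in OV3/SCR and 88, 101 and 84 in OV3/COX1KD. Neither passed the test, at a log2 fold change of -0.38 ± 0.23 for CLDN9 (edgeR FDR 0.166) and -0.22 ± 0.13 for CLDN11 (edgeR FDR 0.167).

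The 5 claudins below the filter had low counts in every library. CLDN5, the main claudin of blood vessel endothelium, had 4, 3 and 5 counts in OV3/SCR and 2, 1 and 5 in OV3/COX1KD. CLDN19, the partner of CLDN16 in the kidney, had 6, 9 and 9 counts in OV3/SCR and 2, 3 and 7 in OV3/COX1KD, which overlap. CLDN20 had 7, 9 and 6 counts in OV3/SCR and 3, 9 and 4 in OV3/COX1KD, and CLDN18, known from stomach and lung, had 0 to 2 counts in every library. CLDN23 had 6, 4 and 4 counts in OV3/SCR and 20, 12 and 7 in OV3/COX1KD, and its libraries did not overlap. With no filter on low counts CLDN23 had a log2 fold change of 1.51 and an edgeR FDR of 0.00433, and the other 4 of these claudins did not pass. AC087269.1 on the same strand covers 72.5% of the exon bases of CLDN23. At 3 counts, the smallest level taken as detectable was 0.112 to 0.120 CPM, and this floor covers counting error only.

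Levels can be compared between genes only per length, here as CPM per kb of exon. With all annotated exons counted, CLDN1 was the most expressed claudin of OV3/SCR at 42.5 ± 0.191 CPM per kb (SD, n = 3), followed by CLDN7 at 41.5 ± 0.853, a difference close to the SD of CLDN7. CLDN16 at 32.5 ± 0.650, CLDN4 at 25.3 ± 0.766, CLDN6 at 15.8 ± 0.287 and CLDN3 at 10.2 ± 0.101 CPM per kb followed, and each step was larger than the SDs. In OV3/COX1KD the order was CLDN7 at 65.7 ± 2.36, CLDN16 at 60.4 ± 0.968, CLDN4 at 55.0 ± 1.35, CLDN3 at 35.5 ± 0.952 and CLDN1 at 16.6 ± 0.495 CPM per kb. CLDN1 thus moved from the first place to the fifth, and CLDN3 from the sixth to the fourth. With the length of the canonical transcript in place of all exons, CLDN4 led in both conditions, at 70.2 ± 2.12 and 152 ± 3.74 CPM per kb, and CLDN1 was the third at 44.8 ± 0.202 in OV3/SCR and followed CLDN12 at 17.5 ± 0.521 in OV3/COX1KD. The order of the highest claudins therefore depended on the transcript length assumed.

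Summed over the 17 claudins, the level per length was 188 ± 0.439 CPM per kb in OV3/SCR and 259 ± 4.65 in OV3/COX1KD (285 ± 0.340 and 421 ± 8.24 with canonical lengths). CLDN1 made up 22.6% ± 0.0609 of this sum in OV3/SCR and 6.42% ± 0.0767 in OV3/COX1KD. CLDN3 went from 5.42% ± 0.0624 to 13.7% ± 0.186, CLDN4 from 13.4% ± 0.437 to 21.2% ± 0.228 and CLDN16 from 17.2% ± 0.306 to 23.3% ± 0.535 (SD, n = 3). CLDN6 went from 8.38% ± 0.169 to 3.21% ± 0.0992, and CLDN12, whose own level rose, from 4.30% ± 0.0543 to 3.76% ± 0.104 of the larger sum. For each of these claudins and for the sum the libraries of the conditions did not overlap, and the two-sided exact permutation test gave p = 0.1, the smallest that 3 against 3 libraries allow. With canonical lengths CLDN1 went from 15.7% to 4.16% and CLDN4 from 24.6% to 36.2%, the same directions.

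**Figure D3:**
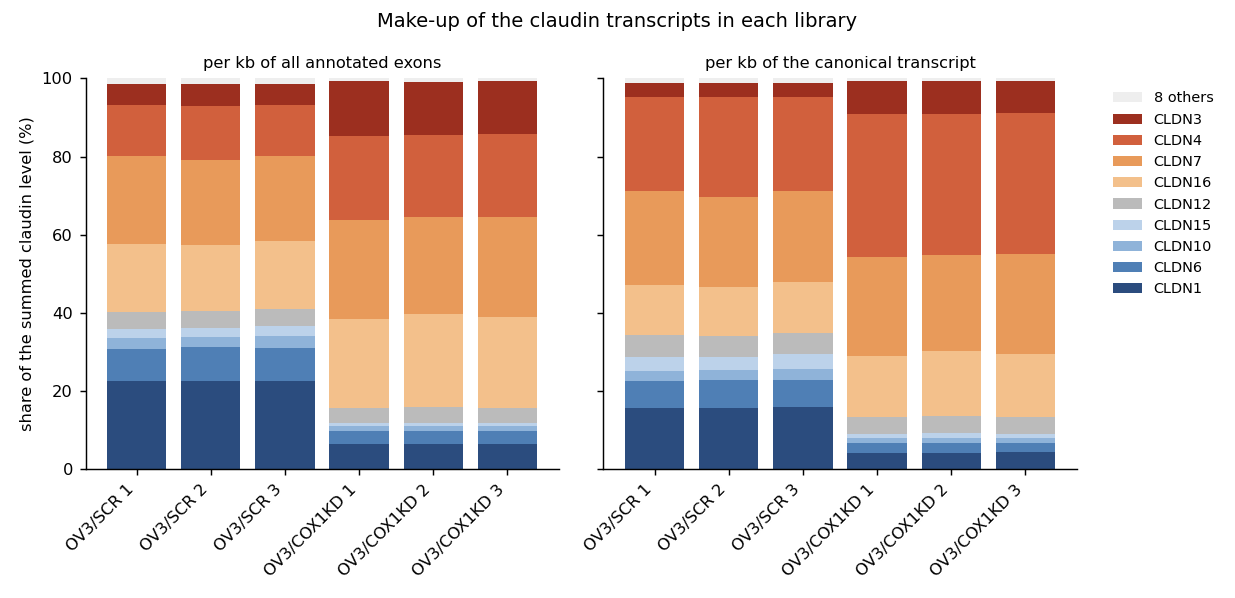
Share of each claudin in the summed claudin level, in percent, in the 6 libraries, per kb of all annotated exons (left) and of the canonical transcript (right), with 8 scarce claudins joined as others. With all exons CLDN1 takes 22.6% of the sum on average in OV3/SCR and 6.42% in OV3/COX1KD, while CLDN3, CLDN4, CLDN7 and CLDN16 take larger shares in OV3/COX1KD.

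The 3 MARVEL-domain proteins all rose at the FDR limit, as did 25.8% of all tested genes. OCLN, which encodes occludin, had 1189, 1244 and 1196 counts in OV3/SCR and 2081, 1958 and 2118 in OV3/COX1KD. The conditions did not overlap, and the log2 fold change was 0.79 ± 0.040 with an edgeR FDR of 2.17e-12. Of the 50-base stretches in its exons 6.55% occurred also in other genes, such as the pseudogene OCLNP1. MARVELD2, which encodes tricellulin, the protein of the corners where 3 cells meet, rose by a log2 fold change of 0.42 ± 0.051 with an edgeR FDR of 7.15e-07. MARVELD3 had 298, 321 and 295 counts in OV3/SCR and 365, 364 and 348 in OV3/COX1KD, and its log2 fold change was 0.27 ± 0.074 with an edgeR FDR of 0.00418. This call was lost without OV3/SCR replicate 1 (edgeR FDR 0.0234), OV3/SCR replicate 3 (edgeR FDR 0.0185) or OV3/COX1KD replicate 1 (edgeR FDR 0.019), and it was not made by DESeq2, the test of the study (DESeq2 FDR 0.019). PHLPP2 on the other strand covers 16.8% of its exon bases.

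Of the junctional adhesion molecules, F11R (JAM-A), an immunoglobulin-type protein of epithelial junctions, had 2179, 2100 and 2021 counts in OV3/SCR and 2726, 2827 and 3066 in OV3/COX1KD. It rose by a log2 fold change of 0.48 ± 0.036, just under the limit of 0.5, with an edgeR FDR of 6.24e-10. The unnamed gene ENSG00000270149 on the same strand covers 36.6% of its exon bases but had only 3 to 10 counts. JAM2 and JAM3, better known from endothelium, were scarce, with 11 to 34 counts for JAM2 and 11 to 22 counts for JAM3 across the 6 libraries. Neither passed the test, at -0.58 ± 0.31 for JAM2 (edgeR FDR 0.116) and -0.27 ± 0.29 for JAM3 (edgeR FDR 0.449). NCAPD3 on the other strand covers 35.6% of the exon bases of JAM3.

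Among the 6 plaque scaffolds, 3 rose and 3 did not pass the test. This is 50% called, near the 47.9% of all tested genes. TJP3, which encodes ZO-3, had 744, 712 and 741 counts in OV3/SCR and 1229, 1181 and 1233 in OV3/COX1KD. It was the only scaffold beyond 0.5, at 0.76 ± 0.046 on the log2 scale with an edgeR FDR of 3.05e-11, and its libraries were apart. TJP1, which encodes ZO-1, had 3208, 3175 and 3135 counts in OV3/SCR and 3266, 2810 and 3326 in OV3/COX1KD. The low library was OV3/COX1KD replicate 2, the log2 fold change was 0.013 ± 0.042 (edgeR FDR 0.804), and without that library it was 0.078 (edgeR FDR 0.0278). CGN, which encodes cingulin, had 3395, 3477 and 3203 counts in OV3/SCR and 3220, 3369 and 3289 in OV3/COX1KD, with a log2 fold change of 0.0039 ± 0.038 (edgeR FDR 0.935). CGNL1, its paralog at the junctional belt, had 75 to 107 counts and a log2 fold change of -0.047 ± 0.15 (edgeR FDR 0.804). MAGI1 and MAGI3, scaffolds with several PDZ domains, rose by 0.49 ± 0.051 (edgeR FDR 7.43e-08) and 0.35 ± 0.060 (edgeR FDR 5.07e-05) on the log2 scale. Without OV3/COX1KD replicate 2 these values were 0.56 and 0.43, so that MAGI1 was then beyond 0.5.

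All 5 polarity genes stayed within 0.5 on the log2 scale. At the FDR alone 3 rose and 1 fell, 80% against 47.9% of all tested genes. PARD3 and PARD6B, the scaffold and the adaptor of the PAR complex, rose by 0.27 ± 0.036 (edgeR FDR 2.08e-06) and 0.22 ± 0.048 (edgeR FDR 6.81e-04) on the log2 scale. INADL, now named PATJ, which joins the Crumbs complex to the ZO proteins, rose by 0.18 ± 0.042 with an edgeR FDR of 0.00119. Its call was lost without OV3/SCR replicate 2 (edgeR FDR 0.0116) or OV3/COX1KD replicate 3 (edgeR FDR 0.010). MPP5, now named PALS1, the adaptor between Crumbs and INADL, had 2180, 2004 and 2046 counts in OV3/SCR and 1472, 1532 and 1593 in OV3/COX1KD. It was the only gene outside the claudins to fall, at -0.41 ± 0.038 with an edgeR FDR of 2.06e-08, and its libraries did not overlap. CRB3, the Crumbs protein of epithelia, had 279 to 300 counts in OV3/SCR and 246 to 289 in OV3/COX1KD and a log2 fold change of -0.041 ± 0.079 (edgeR FDR 0.681).

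**Figure D4:**
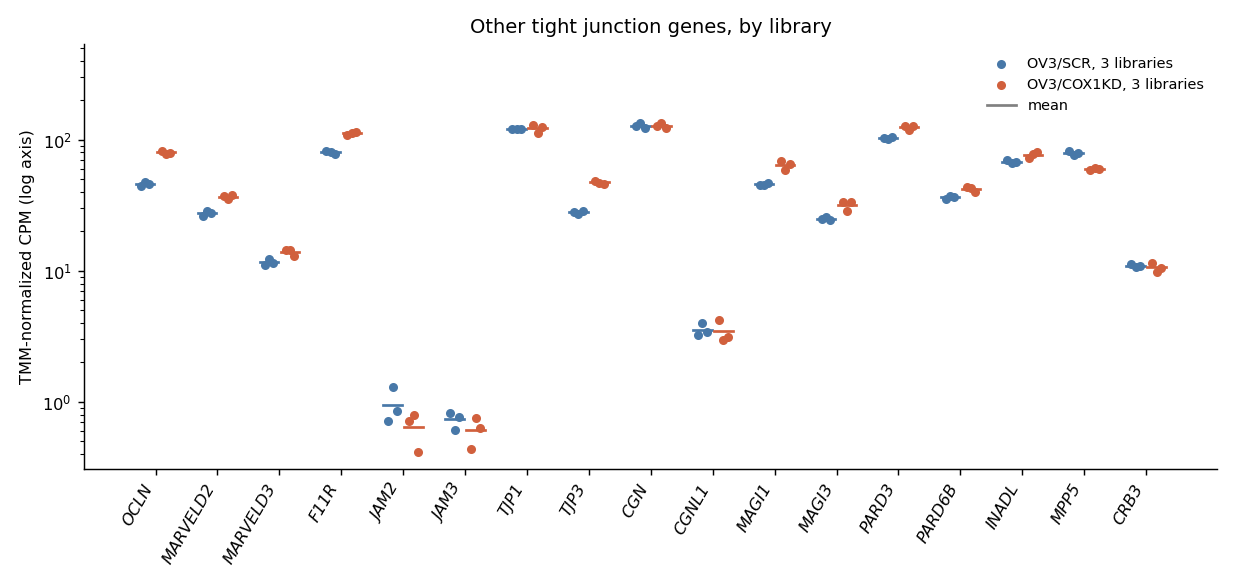
Level of the tight junction genes other than claudins in every library, in CPM on a log axis, with the 3 libraries of each condition as points and a short line at each mean. OCLN is 46.1 CPM on average in OV3/SCR and 80.0 CPM in OV3/COX1KD, TJP3 goes from 27.9 to 47.4 CPM, and CGN is 128 CPM in both.

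Several of the genes are neighbours on a chromosome. In GENCODE 44 on GRCh37, CLDN1 (chromosome 3, 190023496 to 190040235, minus strand) and CLDN16 (190040330 to 190129927, plus strand) are 95 bases apart, yet CLDN1 fell and CLDN16 rose. Their canonical transcripts are 65.7 kb apart. In RefSeq on GRCh38.p14, 1 of the starts of CLDN16 lies on the other side of the CLDN1 start, so a transcript from it would cross that start on the opposite strand. CLDN3 and CLDN4 are 29.3 kb apart and both rose, and OCLN and MARVELD2 on chromosome 5 are 48.0 kb apart and both rose. CLDN6 and CLDN9 on chromosome 16 are 207 bases apart, and CLDN6 fell while CLDN9 was at -0.38 and did not pass.

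Other genes within 1 Mb were read beside the members where their average log2 CPM reached 1. The median log2 fold change was -0.038 for the 20 neighbours of CLDN3, CLDN4 among them, and -0.013 for the 60 neighbours of CLDN6. Those of CLDN3 ran from -0.73 to 1.17, and 4 rose and 3 fell beyond 0.5 at the FDR limit. Of those of CLDN6, 8 rose and 6 fell so far, where 9.87% and 10% of all tested genes did. For CLDN7 the median of 51 neighbours was -0.061, for CLDN15 that of 28 was 0.0036 and for TJP3 that of 43 was 0.0055. OCLN had 12 neighbours with a median of 0.16, and the highest of them, GUSBP3, was at 0.79, as was OCLN itself. Around CLDN1 only 3 such genes lay, and none was near 0, with LEPREL1, a collagen prolyl hydroxylase, at -1.62, CLDN16 at 0.90 and IL1RAP, a subunit of the interleukin-1 receptor, at 1.09.

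**Figure D5:**
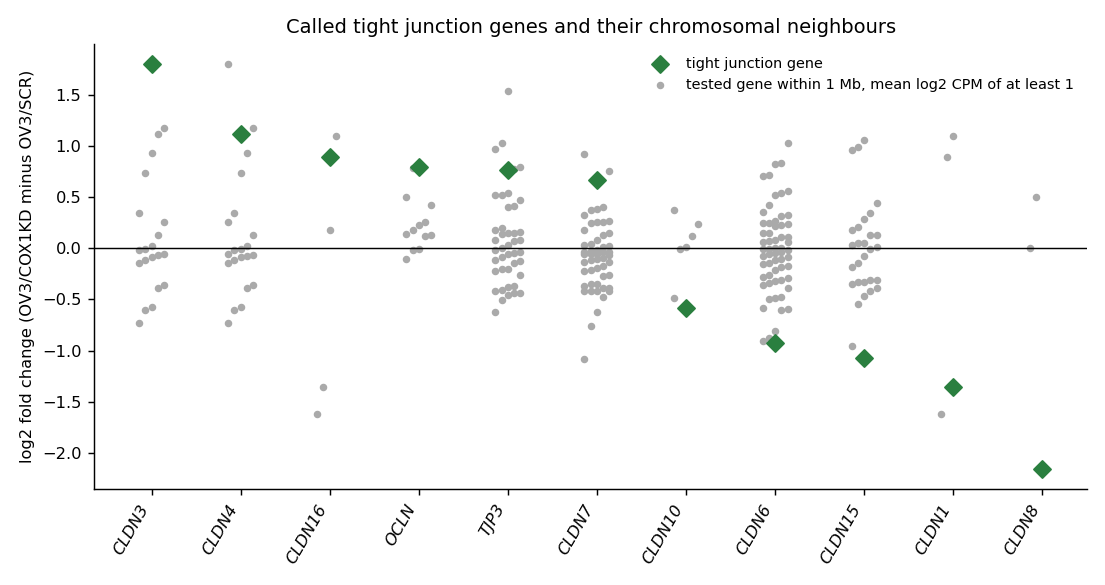
Log2 fold change (OV3/COX1KD minus OV3/SCR) of the 11 tight junction genes beyond 0.5 (diamonds) and of the tested genes within 1 Mb of each whose average log2 CPM reached 1 (grey points). The neighbours of most genes are spread around 0, and those of CLDN1 and CLDN16 lie on both sides of it, between -1.62 and 1.09.

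A further 71 genes that build, move or regulate tight junctions were listed by their known roles, of which 66 were in the count table and 57 were tested. In this wider list 7 rose and 3 fell beyond 0.5 at the FDR limit, 17.5% of those tested against 19.9% of all tested genes, and the median log2 fold change was -0.016. At the FDR alone 22 rose and 15 fell, 64.9% against 47.9% of all tested genes. Of 5 angulins and other immunoglobulin-type proteins tested, 3 rose and none fell at the FDR alone, 60% against 47.9%. CXADR, the coxsackievirus and adenovirus receptor, rose by 0.77 ± 0.034 on the log2 scale, from 2987 to 3075 counts in OV3/SCR to 4771 to 5414 in OV3/COX1KD (edgeR FDR 2.20e-13). ILDR1, an angulin that recruits tricellulin, rose by 0.74 ± 0.067 (edgeR FDR 1.24e-08).

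Among 19 other scaffolds and polarity proteins 6 rose and 7 fell at the FDR alone, 68.4% against 47.9% of all tested genes. CRB2, a second Crumbs protein, had 40, 47 and 42 counts in OV3/SCR and 206, 173 and 185 in OV3/COX1KD, a log2 fold change of 2.16 ± 0.14 (edgeR FDR 6.40e-11). AMOT, the angiomotin that binds the Crumbs complex and YAP, rose by 1.02 ± 0.050 (edgeR FDR 1.26e-12). LIN7A and LIN7B, adaptors that bind MPP5, fell, at -1.41 ± 0.20 for LIN7A (edgeR FDR 4.31e-06) and -0.94 ± 0.17 for LIN7B (edgeR FDR 7.49e-05). LIN7A had 101, 81 and 87 counts in OV3/SCR and 30, 44 and 25 in OV3/COX1KD.

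Of 21 genes of junction signalling, traffic and actomyosin, 7 rose and 6 fell at the FDR alone, 61.9% against 47.9% of all tested genes. Only MYLK passed 0.5, 4.76% of this list against 19.9% of all tested genes. MYLK, the myosin light chain kinase that opens junctions by contraction, had 2100, 2187 and 2110 counts in OV3/SCR and 1342, 1258 and 1512 in OV3/COX1KD, a log2 fold change of -0.61 ± 0.044 (edgeR FDR 4.73e-10). Of 8 transcriptional regulators 3 rose and 2 fell at the FDR alone, 62.5% against 47.9%. GRHL3, a grainyhead-like factor of epithelial barriers, went from 44, 43 and 49 counts in OV3/SCR to 218, 233 and 263 in OV3/COX1KD, a log2 fold change of 2.42 ± 0.12 (edgeR FDR 1.97e-12). Of 4 proteases and inhibitors that act on claudins and occludin, 3 rose and none fell at the FDR alone, 75% against 47.9%, among them PRSS8, a membrane-bound serine protease, at 0.91 ± 0.035 (edgeR FDR 3.36e-14).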

How the data were processed

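RNA-seq libraries were made with an Illumina TruSeq kit from 3 OV3/SCR and 3 OV3/COX1KD populations. Per the labels the submitters' notes name TopHat2 2.0, HTSeq and hg19, and the authors deposited raw counts per gene. The annotation and the strand setting of the counting were not given in the sources used here. The labels gave conditions and replicate numbers.

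Counts were analysed with edgeR 4.0.16 in R 4.3.3: TMM scaling, filterByExpr (17309 of 34811 genes kept), glmQLFit and glmQLFTest with condition only, and Benjamini-Hochberg adjustment over all kept genes. SE was the size of the log2 fold change divided by the square root of F. Limits were an FDR of 0.01, a log2 fold change of 0.5 and a fold change of 2.5, those of the study. Its test, DESeq2 1.42.0, was an alternative, as were other scalings, filters, the replicate block, glmTreat and leaving out each library. The biological coefficient of variation was 3.21%. Lengths, overlaps and coordinates came from GENCODE 44 lifted to GRCh37 (33556 of 34811 genes found) and promoter sequences from RefSeq on GRCh38.p14. Besides the overlaps given above, other genes covered 17.6% of the exon bases of CLDN12, 15.8% of CLDN11, 12.3% of CLDN7 and 11.2% of MPP5.

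The members, lists and tests were chosen with earlier results of these data known. All 36 members are named. From the wider list, genes were named that passed both the FDR and the 0.5 limit, averaged a log2 CPM of 1 or more and moved the same way in all 3 same-numbered pairs, at most 6 in each direction. The scripts were tested on simulated data for this comparison (17309 genes, 200 changed): 69 of 69 abundant genes changed by 1.5 and 65 of 78 changed by 0.5 on the log2 scale were recovered, 148 of the 200 in all, with 3 false calls. In the data 8293 genes passed the FDR limit, and recovery with so many genes changed was not tested.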

Additional observations from a re-analysis of the deposited data

How the results depend on the processing

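The 21 called members kept their direction under RLE size factors, total count scaling, other filters, DESeq2, the replicate block and each left-out library, whereas CGN, CGNL1, CRB3 and TJP1, which were not called, changed sign under some of them. Over members and alternatives 338 values kept their side of the FDR limit and 9 did not. The 9 lost calls were of MARVELD3, PARD6B and INADL, which all fell short under total count scaling (edgeR FDR 0.0319, 0.0163 and 0.0484). The count of members that rose by more than 2.5-fold was 2 with no filter on low counts and 1 to 2 over the left-out libraries, in both cases through CLDN23. The count that fell so far was 1 with at least 10 counts in every library, which removed CLDN8, and 1 to 2 over the left-out libraries (1 without OV3/COX1KD replicate 2). With glmTreat, edgeR's test against that fold, it was 0, with 1 member at an unadjusted p under 0.05, while DESeq2 counted 2, CLDN1 and CLDN8. The median log2 fold change of the members (0.18) was 0.10 with total count scaling, which moved the median of all genes from -0.0087 to -0.086. With no filter it was 0.043 over all 34 members in the table and 0.20 over the 29 tested before. By glmTreat against 0.5, 6 members rose and 4 fell, and CLDN10 was the fall that did not pass (glmTreat FDR 0.28). In the wider list 1 gene fell beyond 0.5 by glmTreat. Same-numbered libraries deviated together with correlations across genes of 0.0045 to 0.042, so the numbers were not taken to pair them, and with the replicate block the counts were 6 higher and 5 lower beyond 0.5, as without it. The conditions are 1 clone each, and genes with few reads, such as CLDN8 and CLDN9, are limited by depth.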
